A study of Homo sapiens with 6 samples.

Results

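The genes described here are 10 regulators of extracellular proteolysis: the matrix metalloproteinases (MMPs) MMP1, MMP2, MMP3, MMP9, MMP10 and MMP14, their tissue inhibitors TIMP1, TIMP2 and TIMP3, and PLAU, which encodes urokinase. Members were matched by gene symbol to probe sets that carry exactly 1 symbol, and the probe set with the highest mean over the 6 arrays stood for its gene. All 10 were measured, among 18417 genes in all, and only TIMP3 had a second probe set. The cells were of 2 established Ewing tumor lines, A673 and SK-N-MC. Ewing tumor is a cancer of bone and soft tissue of children and young adults that is driven by a fusion of EWSR1 with an ETS gene. Each line gave 1 array of cells that received a control siRNA that was not to silence any gene, 1 array with STEAP1 siRNA 2 and 1 array with STEAP1 siRNA 3. STEAP1 is a membrane protein of a metalloreductase family. In every array siRNA was used at 5 nM for 48 h, so the controls were transfected too, and RNA was taken at 80% confluency. Whether separate cultures were used is not stated in the labels. The p-values therefore cover the spread between these 6 arrays, which may be technical. Each siRNA gave 1 array per line, so this spread can also take in differences between the siRNAs and between the lines' responses. With 1 control array per line, the spread between controls is unknown, and both responses within a line share that control.

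MMPs are zinc-dependent proteases that cut collagens, proteoglycans and other matrix proteins. Most are secreted as inactive precursors that other proteases cleave to activate them, and TIMPs bind the active enzymes and block them. Urokinase turns plasminogen into plasmin, which degrades fibrin and can activate several MMP precursors. Together these enzymes are studied in tumors for their part in invasion and metastasis. The comparisons ask how their transcripts differ between the lines and after STEAP1 silencing. Values are log2 of the deposited intensity, which does not count molecules, so values of different genes are not compared. The median of all genes lay between 3.21 and 3.24 in each array and the upper quartile between 4.95 and 5.12, which gives a scale for what is dim. No stated floor separates a dim gene from background, and a difference between dim values can be compressed.

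STEAP1 itself was measured as a check of the labels. It was left at 12.7% of its control with siRNA 2 and 18.7% with siRNA 3 in the SK-N-MC line, and at 30.8% and 32.1% in the A673 line. Across lines its limma difference was -2.18 (SE 0.24), with an adjusted p of 0.293. All 7 measured markers of Ewing cells lay above the array median in all 6 arrays, and CD99, the surface antigen used in diagnosis, lay between 9.40 and 10.25. Of the marker lists of other cells, 0 of 4 endothelial, 1 of 4 leukocyte and 3 of 7 fibroblast genes lay above it in every array, the last being the collagen genes COL1A1, COL1A2 and COL3A1. As a background to these counts, 8147 of all 18417 genes lay above the array median in all 6 arrays. The summed fibroblast marker intensity was 149 to 227 in A673 and 273 to 320 in SK-N-MC, and its part in the line differences was not tested. The endothelial sum was 10.7 to 11.5 against 11.1 to 11.3, and the leukocyte sum 21.0 to 28.2 against 20.4 to 26.5.

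Promoters are shown for 3 members whose values are discussed below: TIMP1 and TIMP3, which were lower than their control in all 4 siRNA arrays, and MMP10, a neighbour of MMP1 on chromosome 11. Each window holds the 250 bases before the RefSeq start site (assembly GRCh38.p14), 5′ to 3′ along the gene's strand. Capitals mark the GC box GGGCGG, the AP-1 site TGANTCA and the TATA box TATAAA, each searched on both strands. The letters CCGGAA, a strict form of the ETS site, were searched too.
TIMP1, chrX:47582186-47582435, plus strand: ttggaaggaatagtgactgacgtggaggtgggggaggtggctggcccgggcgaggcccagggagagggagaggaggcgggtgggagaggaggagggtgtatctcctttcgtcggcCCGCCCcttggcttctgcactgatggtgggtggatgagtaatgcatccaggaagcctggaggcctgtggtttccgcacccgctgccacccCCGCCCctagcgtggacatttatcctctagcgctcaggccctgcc
TIMP3, chr22:32801455-32801704, plus strand: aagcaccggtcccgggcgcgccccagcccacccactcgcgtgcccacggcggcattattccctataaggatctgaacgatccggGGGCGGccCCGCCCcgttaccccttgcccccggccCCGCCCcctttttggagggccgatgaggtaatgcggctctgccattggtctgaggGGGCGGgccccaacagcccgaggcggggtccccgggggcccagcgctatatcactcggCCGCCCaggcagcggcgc
MMP10, chr11:102780629-102780878, minus strand: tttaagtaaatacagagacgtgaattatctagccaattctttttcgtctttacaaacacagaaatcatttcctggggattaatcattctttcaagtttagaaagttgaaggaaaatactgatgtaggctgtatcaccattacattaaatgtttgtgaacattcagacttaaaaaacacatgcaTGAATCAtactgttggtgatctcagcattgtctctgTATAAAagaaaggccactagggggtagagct
The TIMP windows are rich in G and C (64.8% for TIMP1 and 72.4% for TIMP3) and hold GC boxes, 2 in TIMP1 and 5 in TIMP3. The MMP10 window has 34.4% G and C, an AP-1 match 67 bases before the start and a TATA match 31 bases before it, and no GC box. RefSeq windows were found for 5 of the 10 members, the other two being those of MMP14 and PLAU, while those of MMP1, MMP2, MMP3, MMP9 and TIMP2 are not analysed here. The ETS core had no match in the windows of these 5 members, which says only that those letters are not in them. Over 35116 promoter windows of the same length, 42.6% held the GC box, 6.57% the AP-1 site, 10.7% the TATA box and 14.5% the letters CCGGAA. These matches are descriptions of sequence and no evidence of binding.

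MMP1, the interstitial collagenase that cuts fibrillar collagen, was bright in A673 and dim in SK-N-MC. In A673 it was highest in the control, at 9.91, and lower after siRNA 2 (8.14) and siRNA 3 (9.36). In SK-N-MC it lay at 2.69 in the control, 2.19 with siRNA 2 and 1.98 with siRNA 3, below the array median each time. The groups did not overlap, and the means were 9.14 ± 0.91 (SD, n = 3) for A673 and 2.29 ± 0.37 (SD, n = 3) for SK-N-MC. The fitted difference was 6.85 (SE 0.28, 95% interval 6.19 to 7.50), or 115-fold. It was known when the genes were chosen and is given as a description, without a test. Between the control arrays the difference was 7.22, with siRNA 2 it was 5.95 and with siRNA 3 it was 7.38. Fitted on log2 of intensity plus 16, which shrinks dim values, it was 4.79.

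**Figure D1:**
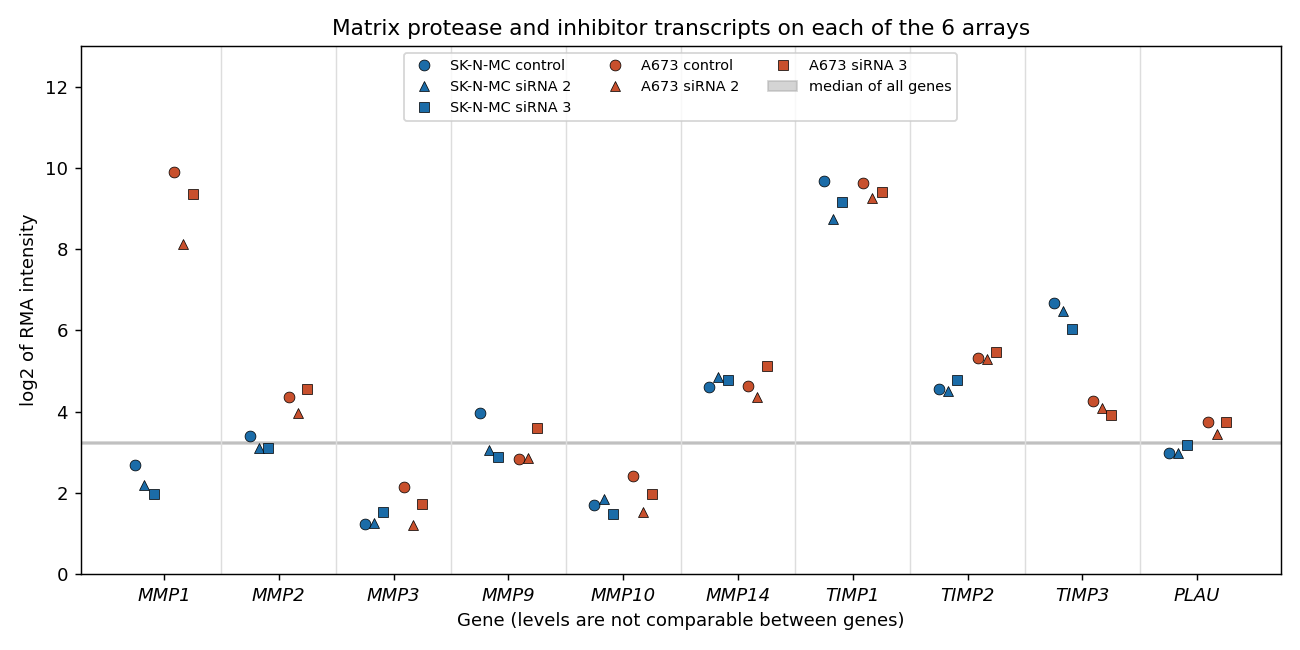
Log2 intensity (vertical axis) of the 10 genes in each of the 6 arrays, 1 point per array, coloured by cell line and shaped by siRNA, with the median of all genes as a grey band. MMP1 points of A673 lie at 8.14 to 9.91 against 1.98 to 2.69 in SK-N-MC, TIMP3 points lie the other way round at 3.92 to 4.25 against 6.03 to 6.68, and the points of both lines overlap for TIMP1 and MMP14.

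TIMP3, an inhibitor that binds to the matrix and also blocks ADAM sheddases, had the opposite order. It lay at 6.68, 6.49 and 6.03 in the SK-N-MC control, siRNA 2 and siRNA 3 arrays and at 4.25, 4.10 and 3.92 in those of A673. No A673 array reached the lowest SK-N-MC array. TIMP3 was 4.95-fold lower in A673 (log2 difference -2.31, SE 0.14, limma adjusted p 1.63e-05), and the difference was -2.43 between controls, -2.38 with siRNA 2 and -2.11 with siRNA 3. Its second probe set was dim, at 2.15, 1.89 and 1.46 in SK-N-MC against 1.40, 1.25 and 1.36 for A673, and with both probe sets averaged the difference was -1.40. TIMP3 lies within an intron of SYN3, a neuronal synapsin gene, whose own probe set stayed between 2.14 and 2.35 in all arrays.

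3 other members were higher in A673. MMP2, the gelatinase that cuts denatured and basement membrane collagen, lay at 4.36, 3.96 and 4.55 in A673 and at 3.39, 3.09 and 3.10 in SK-N-MC (control, siRNA 2, siRNA 3). Its lowest A673 array was above its highest SK-N-MC array, and the fitted difference between lines was 1.09 (SE 0.16, 2.13-fold, limma adjusted p 0.00138). TIMP2, which inhibits MMP2 and also helps MMP14 to activate it, lay at 5.33, 5.29 and 5.48 in A673 and at 4.56, 4.51 and 4.78 in SK-N-MC. It too was separated by line in every array (0.75, SE 0.12, 1.68-fold, limma adjusted p 0.00231), and the difference was between 0.70 and 0.78 under each treatment. PLAU, the gene of urokinase, lay at 3.75, 3.45 and 3.75 in A673 and at 2.98, 2.99 and 3.19 in SK-N-MC. Its 1.52-fold difference (0.60, SE 0.13, limma adjusted p 0.0100) did not pass the threshold once either control array was left out (0.52, limma adjusted p 0.0764). Fitted on log2 of intensity plus 16, the differences were smaller, at 0.50 for MMP2, 0.50 for TIMP2, 0.24 for PLAU and -1.60 for TIMP3, and all 4 still passed. TIMP2 overlaps the gene CEP295NL, whose probe set read 1.79 to 2.73, and PLAU overlaps the non-coding C10orf55, at 1.19 to 1.41, so both overlapping genes were dim in every array.

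The other 5 members did not pass the test between lines. MMP14, the membrane-bound MMP that activates the MMP2 precursor, lay at 4.62, 4.36 and 5.11 in A673 and at 4.62, 4.85 and 4.78 in SK-N-MC. Its difference of -0.05 (SE 0.18) had an interval of -0.47 to 0.37. TIMP1, a secreted inhibitor of many MMPs, was bright in both lines, at 9.64, 9.26 and 9.41 in A673 and 9.69, 8.75 and 9.17 in SK-N-MC, and differed by 0.23 (SE 0.15, interval -0.11 to 0.58). MMP9, the other gelatinase, was at 2.84, 2.86 and 3.60 in A673 and at 3.97, 3.05 and 2.89 in SK-N-MC, so that the control arrays differed by -1.13 and the siRNA 3 arrays by 0.71. The fitted MMP9 difference of -0.20 (SE 0.29) averages these. The stromelysins MMP3 and MMP10, which cut proteoglycans and can activate MMP1, lay below the array median in all 6 arrays and differed by 0.35 (SE 0.21) and 0.30 (SE 0.18). Leaving aside MMP1, whose difference was known when the genes were chosen, 4 of the other 9 members passed the limma test between lines at an adjusted p under 0.05, against 24.8% of all genes tested. The same number had an unadjusted p under 0.05, against 34.1%. By direction 3 of the 9 were higher in A673 (background 13.5%) and 1 lower (background 11.4%). The arrays of the lines did not overlap for these 4 members either, against 37.9% of all genes.

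**Figure D2:**
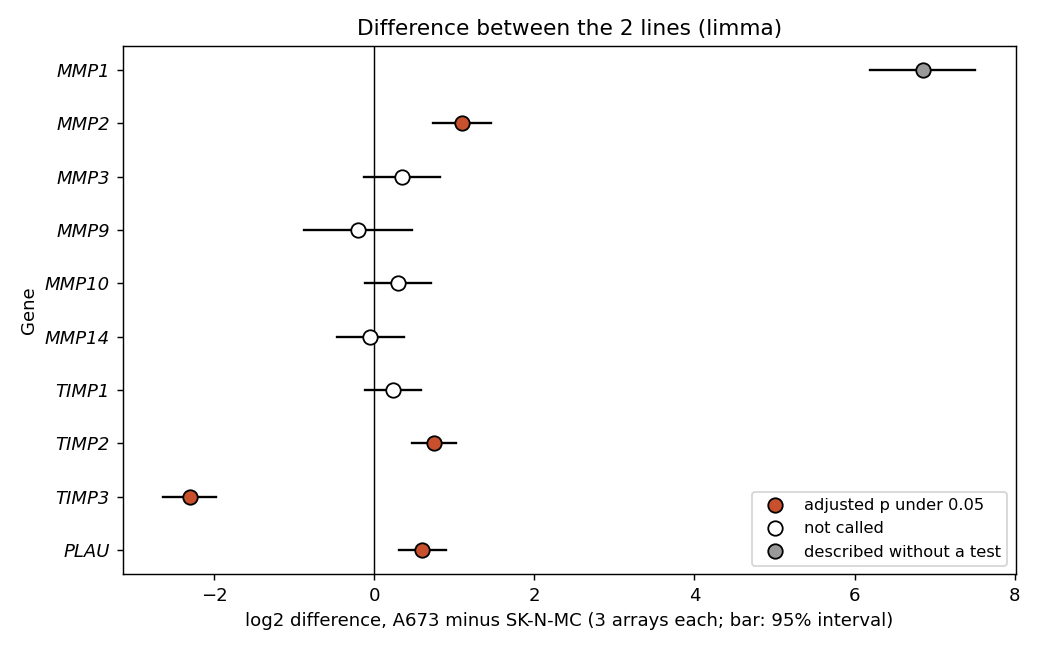
Log2 difference of A673 minus SK-N-MC for each gene (horizontal axis), with bars for the 95% interval of the limma fit over 6 arrays and filled points for genes past the test (MMP1, in grey, is described without a test). MMP1 stands at 6.85 and TIMP3 at -2.31, MMP2, TIMP2 and PLAU lie between 0.60 and 1.09, and the intervals of the other 5 include 0.

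After STEAP1 silencing, MMP1, TIMP1 and TIMP3 were lower than their own control in all 4 siRNA arrays, and none of these differences passed the test over all genes. MMP1 was left at 29.3% of its control with siRNA 2 and 68.3% with siRNA 3 in A673. In SK-N-MC, where the transcript was dim, it was at 70.4% and 61.0%. The fitted SK-N-MC difference was -0.61, or -0.15 on log2 of intensity plus 16. Across lines the limma difference was -0.89 (SE 0.30, interval -1.58 to -0.19, adjusted p 0.989). It was -0.64 on log2 of intensity plus 16, and -0.58 without the A673 siRNA 2 array, the lowest of its line. Without the A673 control array it was -0.61, which is the response of SK-N-MC alone. TIMP1 was at 52.1% and 70.0% of its control in SK-N-MC and at 77.2% and 85.4% in A673 (siRNA 2, siRNA 3). Its difference was -0.51 (SE 0.16, interval -0.88 to -0.14, limma adjusted p 0.989). With the control array of SK-N-MC left out it was -0.30, which is the response of A673 alone. TIMP1 lies within an intron of the synapsin gene SYN1, whose probe set read 3.42 in SK-N-MC control cells and 3.80 and 3.76 after silencing. In A673 it read 3.20, and 3.02 and 2.92 after silencing. SYN1 was thus above its control where TIMP1 was below it in SK-N-MC, and both were below it in A673. TIMP3 was at 87.5% and 63.7% of its control in SK-N-MC and at 90.2% and 79.6% in A673, with a difference of -0.33 (SE 0.15), or -0.22 with siRNA 3 of SK-N-MC left out. A member lower in all 4 siRNA arrays was thus found 3 times in 10, against 11.2% of all genes, and 0 members were higher in all 4 (background 10.6%).

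**Figure D3:**
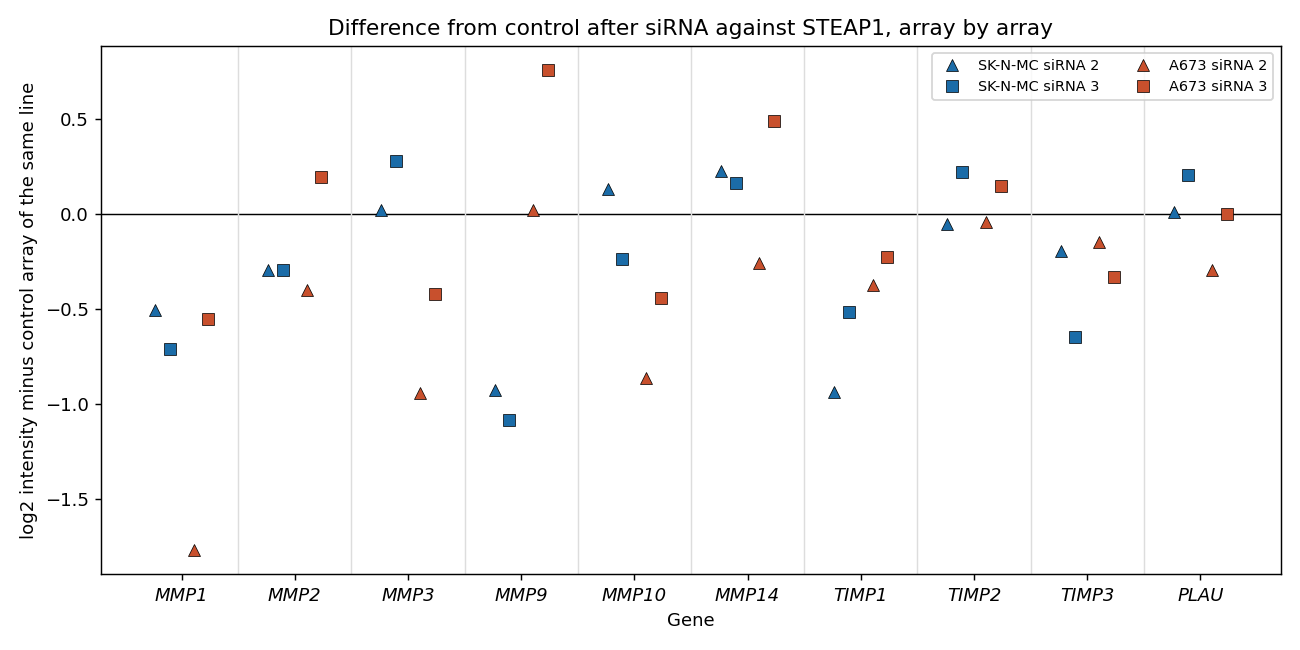
Log2 intensity minus the control array of the same line (vertical axis) for each gene and each of the 4 siRNA arrays, 1 point per array. MMP1, TIMP1 and TIMP3 lie below 0 in all 4 arrays, MMP9 lies at -0.93 and -1.09 in SK-N-MC and at 0.02 and 0.76 in A673, and the A673 siRNA 2 point of MMP1 is at -1.77.

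For the other members the arrays were not all on one side of their controls. MMP9 was at 52.6% and 47.1% of its control in SK-N-MC but at 101% and 169% in A673 (siRNA 2, siRNA 3). In SK-N-MC its difference was -1.01 (SE 0.30, limma adjusted p 0.846), and in A673 it was 0.39 (SE 0.30). On log2 of intensity plus 16 the SK-N-MC difference was -0.41. MMP3 was at 52.1% and 74.6% and MMP10 at 54.9% and 73.5% of control in A673, from levels that were dim to begin with. Their A673 differences were -0.68 (SE 0.25) and -0.65 (SE 0.24), or -0.12 and -0.14 on log2 of intensity plus 16. In SK-N-MC they were 0.15 and -0.05. MMP2 differed by -0.20 (SE 0.17), MMP14 by 0.16 (SE 0.19), TIMP2 by 0.07 (SE 0.13) and PLAU by -0.02 (SE 0.14) across lines. The intervals of TIMP2 (-0.22 to 0.36) and PLAU (-0.33 to 0.30) leave room for changes of either sign.

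By limma, 0 of the 10 members passed at an adjusted p under 0.05 across lines (background 0%), and 2 of them, MMP1 and TIMP1, had an unadjusted p under 0.05, against 4.63% of all genes. The members' median difference was -0.29 with 8 of 10 below 0, PLAU only at -0.02. The median of all genes was -0.01, with 9485 of 18417 below 0. In SK-N-MC 0 members passed (background 0.00543%) and 2, MMP9 and TIMP1, had an unadjusted p under 0.05, against 5.12% of all genes. In A673 0 members passed (background 0%) and 3, MMP1, MMP3 and MMP10, had an unadjusted p under 0.05, against 3.35%. The MMP1 difference in A673 was -1.16 (SE 0.44, interval -2.21 to -0.12, limma adjusted p 1.00), and in SK-N-MC it was -0.61 (SE 0.44). These responses could not be shown to differ (-0.55, SE 0.62). For the difference of the responses, 0 members passed the limma test (background 0%) and MMP9 alone had an unadjusted p under 0.05, against 3.86%. Responses were of one sign in both A673 arrays and of the other in both SK-N-MC arrays for 2 members, MMP3 and MMP9, against 20.0% of all genes.

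Between the siRNAs, 0 members passed the limma test of siRNA 2 against siRNA 3 (background 0%) and 0 had an unadjusted p under 0.05, against 6.67% of all genes. MMP1 differed by -1.22 in A673 and by 0.21 in SK-N-MC (siRNA 2 minus siRNA 3), which gave -0.51 (SE 0.31) across lines. MMP14 and MMP9 also differed in A673, by -0.75 and -0.74, and less in SK-N-MC, by 0.06 and 0.16. TIMP3 was the one member above in both lines, by 0.46 in SK-N-MC and 0.18 in A673 (0.32, SE 0.15, limma adjusted p 0.760; background of this order 24.6%). With siRNA 2 below siRNA 3 in both lines there were 5 members, MMP2, MMP3, TIMP1, TIMP2 and PLAU, against 26.3% of all genes.

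MMP1, MMP3 and MMP10 belong to a cluster of 9 MMP genes that are neighbours on chromosome 11, in the order MMP7, MMP20, MMP27, MMP8, MMP10, MMP1, MMP3, MMP12 and MMP13. In SK-N-MC all 9 lay below the median of every array, and in A673 all but MMP1 did so. Of the 8 besides MMP1, 0 passed the limma test between lines, against 24.8% of all genes. Only 1 of them, MMP12, had an unadjusted p under 0.05, against 34.1%. The arrays of the lines did not overlap for 4 of the 8, against 37.9%. The genes next to the cluster were higher in A673 by limma, a call made for 13.5% of all genes. On one side the differences were 1.48 (SE 0.15, limma adjusted p 0.000246) for BIRC2 and 1.02 (limma adjusted p 0.000404) for TMEM123. On the other side they were 1.01 (limma adjusted p 0.00147) for DCUN1D5 and 1.18 (limma adjusted p 0.000937) for DYNC2H1. In A673 the genes MMP10, MMP1, MMP3, MMP12 and MMP13, which lie in a row, shared an order with the control highest, siRNA 3 between and siRNA 2 lowest. MMP12, the macrophage elastase, was at 1.72, 1.26 and 1.39 there (control, siRNA 2, siRNA 3), and MMP13, another collagenase, at 1.20, 1.04 and 1.13. The differences for these 2 genes are small and at the dim end of the arrays. This order was picked out after the values were seen. It held for 4 members (MMP1, MMP3, MMP10 and TIMP1) and for 17.0% of all genes.

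**Figure D4:**
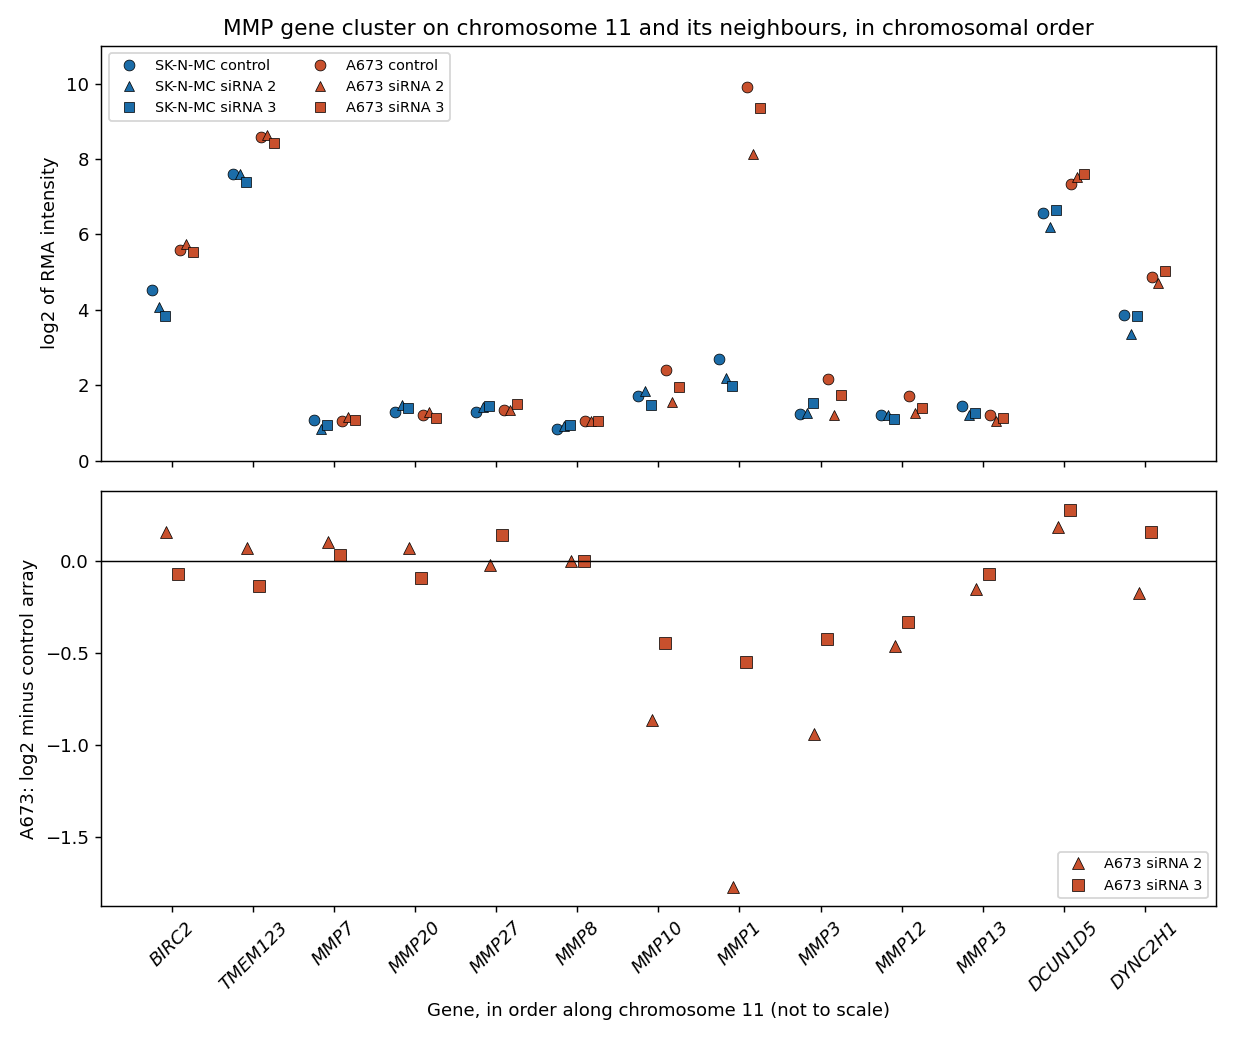
Log2 intensity in all 6 arrays (upper panel) and log2 minus the A673 control for both A673 siRNA arrays (lower panel) of the MMP genes and their flanking genes on chromosome 11, in gene order and not to scale. In the lower panel, from MMP10 to MMP13 both points lie below 0 with siRNA 2 the lower, and the genes further out lie between -0.17 and 0.28.

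Other genes of the pathway were read by list in the same fits. For each count called between lines, the background is 13.5% of all genes higher and 11.4% lower. Of 16 measured further MMPs, 1 was higher in A673 by limma, the membrane-bound MMP16 (0.55, SE 0.12, adjusted p 0.0126), and 0 were lower. None of the 16 lay above the array median in every array, against 8147 of all 18417 genes. The median difference of the 16 was 0.02. Of 4 other inhibitors, TIMP4 was higher (1.02, SE 0.12, limma adjusted p 0.000520) and A2M, the broad plasma protease inhibitor, lower (-1.71, SE 0.20, limma adjusted p 0.000501). Among 10 measured genes of the plasminogen system, 4 were higher in A673 and 1 lower. The higher ones included S100A10 (2.35, SE 0.14, limma adjusted p 1.25e-05) and ANXA2 (1.46, SE 0.10, limma adjusted p 2.79e-05), whose proteins together bind plasminogen at the cell surface. They also included the urokinase inhibitor SERPINE2 (2.27, SE 0.11, limma adjusted p 4.56e-06) and PLAT, the tissue plasminogen activator (0.59, SE 0.15, limma adjusted p 0.0229). LRP1, a receptor that clears protease and inhibitor complexes, was lower (-0.49, SE 0.13, limma adjusted p 0.0216). PLAUR, the urokinase receptor, differed by 0.35 (SE 0.17, limma adjusted p 0.200).

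Of 3 activators and partners of MMPs, CD44 (0.75, SE 0.11, limma adjusted p 0.00162) and BSG (0.38, SE 0.11, limma adjusted p 0.0435) were higher in A673, and FURIN, which activates MMP14, differed by -0.11. Among 15 AP-1, ETS, NF-κB and related factors, which are known to act on MMP promoters, 3 were higher and 3 lower. ETV5 (2.01, SE 0.21, limma adjusted p 0.000271), CEBPB (1.16, SE 0.12, limma adjusted p 0.000260) and ETV4 (1.09, SE 0.11, limma adjusted p 0.000168) were higher. The AP-1 subunits JUNB (-1.10, SE 0.13, limma adjusted p 0.000402) and JUN (-0.69, SE 0.13, limma adjusted p 0.00610) and the NF-κB subunit NFKB1 (-1.04, SE 0.22, limma adjusted p 0.00899) were lower.

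After silencing, 0 genes of these lists passed the limma test across lines. With an unadjusted p under 0.05 there were 0 of 16 further MMPs, 1 of 4 inhibitors, 1 of 10 plasminogen genes, 0 of 3 partners and 3 of 15 factors, against 4.63% of all genes. The genes with one sign in all 4 siRNA arrays that the naming rule picked were MMP26 (0.26, SE 0.13), MMP13 (-0.17, SE 0.11), TIMP4 (0.31, SE 0.13), PLG (0.45, SE 0.14), SERPINE2 (-0.24, SE 0.12), FURIN (-0.30, SE 0.13), NFKB1 (-0.58, SE 0.23) and JUND (-0.28, SE 0.13), each with a limma adjusted p of 0.989. Lower in all 4 arrays were 3 of 16 further MMPs, 0 of 4 inhibitors, 1 of 10 plasminogen genes, 1 of 3 partners and 2 of 15 factors (background 11.2%). Higher in all 4 were 1 of 16 further MMPs, 1 of 4 inhibitors, 1 of 10 plasminogen genes, 0 of 3 partners and 0 of 15 factors (background 10.6%). MMP26, MMP13 and PLG were dim, with a mean log2 of 1.42, 1.21 and 1.53.

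Patterns over the 6 arrays were compared by Pearson r with genes of mean log2 of at least 4 (7412 for MMP1 and TIMP3, 7413 for MMP2 and MMP9), as a description in which the arrays of a line share its level. For MMP1, PSMB4, a proteasome subunit, was most alike (r = 1.00), followed by LMF1 and BTBD2 (r = 0.998 each). PSMB4 itself spanned only 9.24 to 9.70, so likeness in shape says nothing of size. In all, 1268 genes had an r of at least 0.9 with MMP1. WASHC5 (r = 0.998) was most like MMP2 and THG1L (r = 0.998) most like TIMP3, with 899 and 867 genes at 0.9 or more. MMP9, whose arrays did not divide by line, had 18 such genes.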

How the data were processed

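Each of the 6 samples was hybridised to 1 Affymetrix Human Gene ST array. Linear intensities were deposited, and per the submitters' processing notes the authors used RMA and Affymetrix Expression Console 1.1 to make them. RMA corrects background, quantile-normalizes arrays and summarizes probes on a log2 scale, and how the values were returned to linear units is not given here. Log2 of each deposited intensity was taken, with no offset and no further scaling.

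Of 33297 probe sets, 19460 carry exactly 1 gene symbol in the platform annotation, 1754 carry several and 12083 are unnamed here. Symbols were updated through RefSeq (19429 matched). The brightest probe set stood for each of 18417 genes, of which 769 had several. MMP23B, SERPINB2 and NR0B1 are not analysed here, and 1 further listed gene is not reported here. RefSeq (GRCh38.p14) gave gene names, neighbours and promoters.

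Limma 3.58.1 in R 4.3.3 (lmFit, eBayes, two-sided, Benjamini-Hochberg over all genes, adjusted p under 0.05) was fitted to all 6 arrays. Line and silencing terms gave the line difference and silencing across lines (3 residual degrees of freedom). 4 group means gave the responses within lines and their difference, and a term per siRNA gave siRNA 2 minus siRNA 3 (2 residual degrees of freedom each). The fits were run on simulated data with planted silencing changes and the same spread for every gene. Only the recovered size of the change across lines was checked, which says nothing of the spread in the real arrays. Replicate numbers 2 and 3 name the same STEAP1 siRNA in A673 and in SK-N-MC, per the design text, and mark no shared animal, culture or day. The number was therefore a block in an alternative fit only, and the control siRNA is not named, so it may have differed between lines.

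Alternatives were median centring, a second quantile normalization, a floor at a mean log2 of 4, log2 of intensity plus 16, the mean of the probe sets, a trended prior and leaving out each array. The members, lists, tests and alternatives were chosen with earlier results of these data known. Text names all members. From each list it names genes past the threshold, or else up to 2 genes of one sign in all 4 siRNA arrays with the largest smallest change, and it names the genes most alike in pattern. The number of arrays limits the precision.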

Additional observations from a re-analysis of the deposited data

Results flagged for a closer look

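Responses to silencing were of opposite sign in the lines for MMP9 and MMP3. MMP9 was lower than control in both SK-N-MC siRNA arrays (-0.93 and -1.09) and higher in both A673 siRNA arrays (0.02 and 0.76), and the A673 response was above the SK-N-MC response by 1.40 (SE 0.42, interval 0.40 to 2.40, limma adjusted p 1.00). The first A673 value is close to 0, and each line's sign rests on 1 control array. MMP3 was higher than control in both SK-N-MC siRNA arrays (0.02 and 0.28) and lower in both A673 siRNA arrays (-0.94 and -0.42), with a difference of -0.83 (SE 0.35, interval -1.67 to 0.00, limma adjusted p 1.00). MMP3 was dim in every array, and its first SK-N-MC value is also close to 0. Neither difference passed the test over all genes, and 20.0% of all genes had responses of opposite sign in this way. On log2 of intensity plus 16 the differences were smaller, at 0.56 for MMP9 and -0.14 for MMP3.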

How the results depend on the processing

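Counts of members between lines leave out MMP1 here, which was chosen with its difference known and supports no count. In the main fit 4 of the other 9 members passed, against 24.8% of all genes. These 4, MMP2, TIMP2, TIMP3 and PLAU, passed under every alternative run except 2 kinds. With only genes of mean log2 of at least 4 tested, TIMP2 and TIMP3 passed. MMP2 and PLAU lie under that floor, and MMP1 clears it only through A673. With 1 array left out, only PLAU ever fell short, when either control array was left out. With the siRNA number as replicate block, the same 4 members and 4720 of all genes passed, against 4575 without it, and MMP1 stayed at 6.85. The block changed no member's call. Scaling alternatives moved the median of all genes by less than 0.1, and no member's difference changed sign under scaling, offset, probe set or trend alternatives. In SK-N-MC 1 gene passed, against 4 after a second quantile normalization, 0 on log2 of intensity plus 16, 5 with an intensity trend and 0 to 61 with 1 array left out. With 1 array left out, 0 to 1 genes passed across lines and 0 to 26 for the difference of responses. Signs turned only where 1 array was left out. Within a line, leaving out 1 siRNA array leaves only the other siRNA array against the control. Across lines, without a line's only control array, silencing is estimated in the other line alone. Beyond this the cause was not tested. Across lines the ranges were -1.01 to 0.39 for MMP9, -0.15 to 0.11 for PLAU and -0.68 to 0.15 for MMP3. The ends of these ranges are the responses of each line alone. In SK-N-MC they were -0.24 to 0.13 for MMP10 and -0.055 to 0.22 for TIMP2. In A673 they were -0.40 to 0.19 for MMP2, -0.30 to 0.0034 for PLAU, -0.26 to 0.49 for MMP14 and -0.040 to 0.15 for TIMP2. For the difference of responses they were -0.17 to 0.11 for TIMP2, -0.046 to 0.41 for TIMP3, -1.16 to 0.059 for MMP1, -0.46 to 0.30 for MMP14 and -0.10 to 0.49 for MMP2. For siRNA 2 minus siRNA 3 they were -1.18 to 0.165 for MMP1, -0.47 to 0.42 for MMP10 and -0.98 to 0.39 for MMP9. Between lines they were -0.55 to 0.26 for MMP9 and -0.26 to 0.17 for MMP14. Members below the array median have no detection calls here, which limits what their differences can show. These are MMP3 and MMP10 in all arrays, MMP1 and PLAU in SK-N-MC, and MMP2 in both SK-N-MC siRNA arrays. MMP9 lay above the array median in only 2 of the arrays.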
